A study of Mus musculus with 3 samples.

Results

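The TNF superfamily comprises secreted or membrane-bound ligands related to tumour necrosis factor and the receptors that bind them. Its genes were chosen by symbol in the platform annotation (Tnf, Fas, Fasl, Lta, Ltb, and every symbol of the Tnfsf or Tnfrsf series), and 34 of the 19938 genes measured met that rule, 13 ligand genes and 21 receptor genes. They were read on 3 arrays of thioglycollate-elicited peritoneal macrophages from male Angptl4-/- mice of the C57Bl/6 strain, so every culture, the control included, lacked Angptl4. The cells were taken 3 days after an injection of 4% thioglycollate, cultured for 2 days, and then given phosphate-buffered saline (PBS), intralipid, or intralipid with recombinant mouse ANGPTL4, for 6 h. Intralipid, an emulsion of triglyceride droplets, was given at 0.5 mM triglyceride, and ANGPTL4, a secreted inhibitor of lipoprotein lipase, at 2.5 µg/mL from 1.5 h beforehand. The question of the study was how added ANGPTL4 changes what these macrophages do under a lipid load.

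RNA of 3 samples was pooled for each array, and 1 array stands for each group. No difference below could be set against a spread between replicates, and "higher" or "lower" is said of these 3 arrays. The labels do not describe a mock pre-incubation of the other cultures or the purity of the recombinant protein, and neither wild-type cells nor cells given ANGPTL4 without lipid were analysed here. ANGPTL4 and the pre-incubation therefore cannot be told apart. The deposited values are log2 values, and a fold is the ratio of 2 such values taken back to the linear scale. A gene counted as expressed at or above a floor, which was the median over the annotated probe sets of an array (4.98 on the log2 scale for PBS, 4.97 for intralipid and 4.97 for the array with ANGPTL4). Because each probe set binds its transcript with its own strength, levels are compared between arrays and not between genes. Sums over a list of markers are likewise read only between arrays, and probe sets with high values weigh most in them.

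Macrophages are a main source of TNF, which is made as a membrane-bound trimer and released by the protease ADAM17. TNF acts through TNFR1, a receptor with a death domain that can lead to NF-kB activation or to cell death, and through TNFR2, which lacks a death domain and recruits TRAF adaptors. Other members pair in the same way: FasL with Fas in apoptosis, RANKL with RANK in osteoclast formation, BAFF with TACI and the BAFF receptor in B cell survival, and TWEAK with Fn14 in tissue repair.

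The 4 members at least 2-fold apart in any comparison were Tnf, Fas, Tnfrsf1b, which encodes TNFR2, and Tnfrsf12a, which encodes Fn14. Their promoter sequences are shown because the results turn on these genes. Each is the 250 bases before the annotated start site in RefSeq, build GRCm38.p6, read 5′ to 3′ on the strand of the gene. Capitals mark a match to the TATA motif TATAAA or to the AP-1 motif TGANTCA on either strand.
Tnf, chr17:35202008-35202257, minus strand: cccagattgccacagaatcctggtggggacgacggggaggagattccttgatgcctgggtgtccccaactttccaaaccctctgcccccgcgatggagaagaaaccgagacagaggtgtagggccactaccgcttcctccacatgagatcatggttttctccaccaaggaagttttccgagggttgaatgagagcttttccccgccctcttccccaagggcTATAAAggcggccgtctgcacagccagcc
Fas, chr19:34290409-34290658, plus strand: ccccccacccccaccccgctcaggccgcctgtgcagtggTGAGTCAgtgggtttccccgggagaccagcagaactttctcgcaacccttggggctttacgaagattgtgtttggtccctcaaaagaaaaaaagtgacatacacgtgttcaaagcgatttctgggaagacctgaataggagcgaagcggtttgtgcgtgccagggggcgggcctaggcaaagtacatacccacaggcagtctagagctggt
Tnfrsf1b, chr4:145246871-145247120, minus strand: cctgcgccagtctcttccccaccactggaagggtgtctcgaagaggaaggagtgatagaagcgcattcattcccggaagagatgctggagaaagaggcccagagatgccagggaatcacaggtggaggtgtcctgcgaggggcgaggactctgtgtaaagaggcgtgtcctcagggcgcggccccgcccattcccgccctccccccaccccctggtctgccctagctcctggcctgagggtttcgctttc
Tnfrsf12a, chr17:23677450-23677699, minus strand: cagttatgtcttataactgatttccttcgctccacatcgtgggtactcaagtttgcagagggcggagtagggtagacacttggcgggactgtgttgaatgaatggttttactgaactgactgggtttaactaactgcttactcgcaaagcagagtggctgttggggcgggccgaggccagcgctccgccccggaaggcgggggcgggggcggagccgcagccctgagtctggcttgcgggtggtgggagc

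The Tnf window held a TATA match from 29 to 24 bases before the start, a match found in 12.4% of the 32851 windows of this length in the table. The Fas window held an AP-1 match from 211 to 205 bases before the start, and 6.75% of all windows held one at some place. The windows of Tnfrsf1b and Tnfrsf12a held neither. None of the 4 windows matched the cyclic AMP response element TGACGTCA (1.55% of all windows) or the NF-kB consensus motif (7.25%), which says only that these letters are not in these windows. Of the 34 members, 28 had a window, 13 of them genes that reached the floor on 1 array or more. The NF-kB consensus was in the windows of 4, Ltb, Tnfrsf8, Tnfrsf9 and Tnfrsf25, each of which lay below the floor on every array. An AP-1 match was in those of 5 members, 2 of which reached the floor, and a TATA match in those of 6, 3 of which did. These counts are per gene, and some genes have several windows, while the shares above are per window, so nothing is read from them. The GC content of the windows shown was 57.6% for Tnf, 56.4% for Fas, 62.8% for Tnfrsf1b and 58.8% for Tnfrsf12a.

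Of the 34 members, 15 lay at or above the floor on 1 array or more and 14 on all 3, Fas being the one that missed it with intralipid. The share of expressed genes so defined was 50.6% over the whole table and 44.1% over the members. The share was 3 of 13 for ligands (Tnf, Tnfsf11 and Tnfsf13b) and 12 of 21 for receptors. Identical values on all 3 arrays were deposited for 15 members (44.1%, against 49.3% of all genes), among them Tnfsf11 and Tnfrsf22 above the floor.

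Macrophage markers were at or above the floor for 10 of 11 measured genes, the exception being Cd163, and their summed linear level came to 23549 for PBS, 24448 for intralipid and 25307 with ANGPTL4 added. Of these markers, 3 were at least 2-fold apart in some comparison. Cd14, the lipopolysaccharide co-receptor, was 9.07, 11.17 and 10.34 on the log2 scale in that order, 4.29-fold and 2.40-fold above PBS on the arrays with lipid. Msr1, a scavenger receptor, was 10.02, 9.36 and 10.56, so that the arrays with lipid were over 2-fold apart, and Fcgr1, the high-affinity IgG receptor, was 9.54, 9.07 and 8.53, with PBS and ANGPTL4 2.01-fold apart. Of 10 markers compared, 1 was higher and 0 lower with intralipid than with PBS, where 2.51% and 1.32% of all genes compared were. With ANGPTL4 against intralipid, 1 was higher and 0 lower, where 2.53% and 2.3% of genes were. With ANGPTL4 against PBS, 1 was higher and 1 lower, where 0.85% and 0.04% were. These counts rest on single genes. The markers measured for T and NK cells (10), B cells (7) and mast cells (8) were below the floor on every array. Fibroblast markers reached it for 5 of 7 genes, with a summed level of 2329, 2318 and 2304. Neutrophil markers did so for 2 of 8 (S100a8 and Mmp8), eosinophil markers for 1 of 4 (Siglecf), mesothelial markers for 1 of 5 (Wt1) and dendritic cell markers for 1 of 7 (Clec9a, with intralipid only, at 5.00 against 3.44 with PBS and 3.32 with ANGPTL4). Their summed levels in the same order were 375, 373 and 371, then 215, 191 and 215, then 113, 112 and 108, and 118, 139 and 117. Each sum takes in all measured markers of a list, those below the floor too. The dendritic cell sums with PBS and with ANGPTL4 hold 0 markers at the floor. The largest parts of the macrophage sum are Lyz2, at 12.91 on every array, and Cd68, at 12.80, 12.83 and 12.80. In such bulk RNA, fewer cells of a type and less RNA per cell cannot be told apart, and the part of any of these cells in the differences below was not tested.

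**Figure D1:**
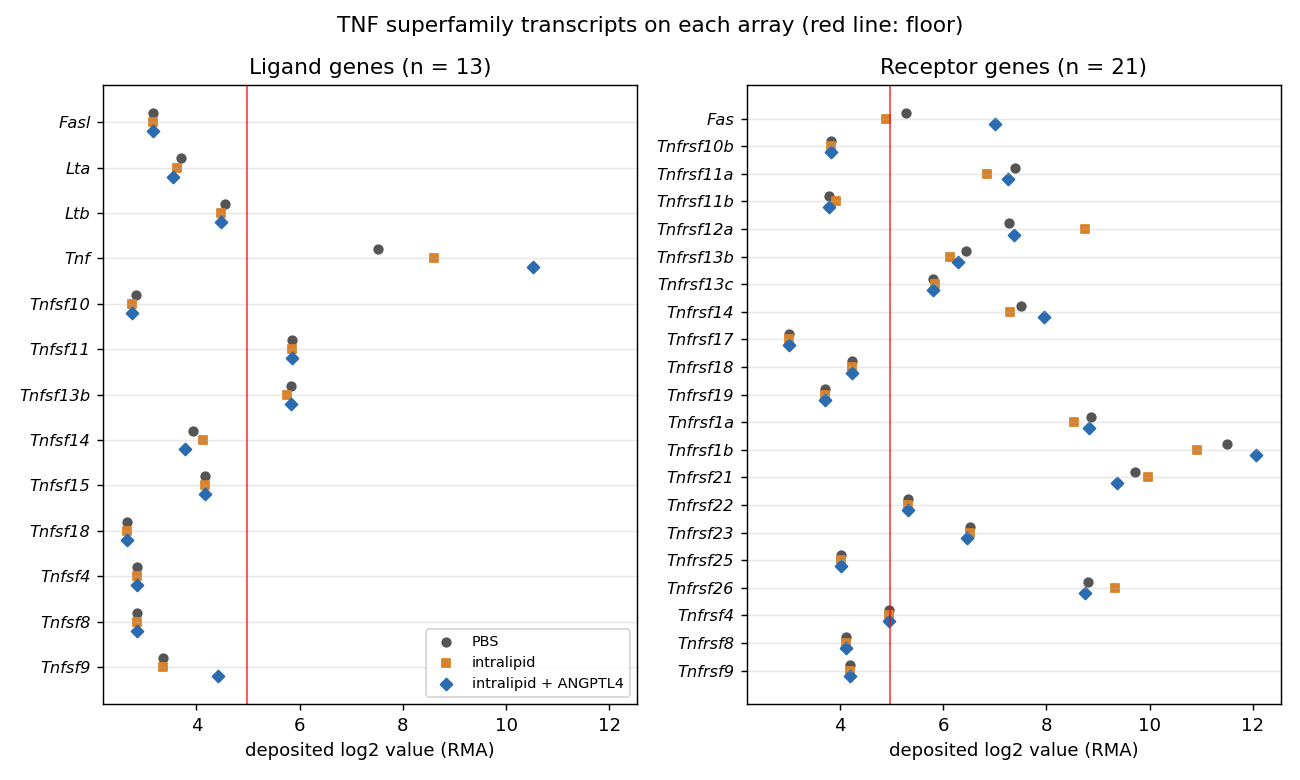
Deposited log2 value (horizontal axis) of each of the 13 ligand genes and 21 receptor genes on the PBS, intralipid and intralipid plus ANGPTL4 arrays, 1 point per array, with the mean floor as a red line. Tnf is set apart among the ligands by the spread of its 3 points, from 7.53 to 10.52, while most other ligands sit below the floor with their points together.

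Tnf was the ligand that differed most between the arrays. Its log2 value was 7.53 in PBS, 8.61 in intralipid and 10.52 in intralipid with ANGPTL4. It was thus lowest in the control culture, intermediate with lipid alone and highest with lipid and ANGPTL4. The differences amounted to 2.12-fold higher with intralipid than with PBS, 3.77-fold higher with ANGPTL4 than without it, and 7.99-fold higher with ANGPTL4 than with PBS. Among all genes compared, Tnf ranked 223 of 10049 from the top in the first of these comparisons, 31 of 10064 in the second and 5 of 9995 in the third. The 3 comparisons share arrays, so their values for a gene are not independent of each other.

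Of the other ligand genes, Tnfsf13b and Tnfsf11 lay above the floor and the rest below it on every array. Tnfsf13b, which encodes BAFF, read 5.83 on the log2 scale with PBS, 5.76 with intralipid and 5.83 with ANGPTL4, and Tnfsf11, which encodes RANKL, was 5.86 on every array. Fasl, which encodes the ligand of Fas, was 3.15 on every array, and Tnfsf10, which encodes TRAIL, lay between 2.76 and 2.82. Tnfsf9, which encodes 4-1BBL, a co-stimulatory ligand of T cells, was 3.35 with PBS and with intralipid and 4.41 with ANGPTL4, below the floor throughout, so no fold is given. Lta, Ltb, Tnfsf4, Tnfsf8, Tnfsf14, Tnfsf15 and Tnfsf18 also stayed below the floor, at values from 2.66 (Tnfsf18) to 4.56 (Ltb with PBS). Tnfsf12 and Tnfsf13, which encode TWEAK and APRIL, share 1 probe set with the read-through gene Tnfsfm13 and so are not among the members. That probe set read 8.58 with PBS, 8.56 with intralipid and 8.54 with ANGPTL4, nearly the same level in the 3 cultures.

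The receptors of TNF behaved differently from each other. Tnfrsf1b read 11.49 on the log2 scale with PBS, 10.91 with intralipid and 12.07 with ANGPTL4, lowest with lipid alone and highest with ANGPTL4. It was 1.50-fold lower with intralipid than with PBS, 2.22-fold higher with ANGPTL4 than with intralipid (rank 178 of 10064) and 1.49-fold higher with ANGPTL4 than with PBS (rank 243 of 9995). Tnfrsf1a, which encodes TNFR1, was 8.86, 8.53 and 8.82 in the same order. It was also lowest with intralipid, yet by 1.26-fold against PBS and 1.22-fold against ANGPTL4, and the arrays with PBS and ANGPTL4 differed by 1.03-fold.

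Fas, the death receptor, read 5.28 on the log2 scale with PBS, 4.89 with intralipid and 7.00 with ANGPTL4. Its level was near the floor on the first array and just below it on the second, and stood well above it only with ANGPTL4. It was 4.33-fold higher with ANGPTL4 than with intralipid, or 4.11-fold when the intralipid value is set to the floor, and ranked 21 of 10064 genes. Against PBS it was 3.30-fold higher and ranked 20 of 9995. The transcript of its ligand stayed at background in the same cultures.

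Tnfrsf12a followed another course. Its log2 value was 7.28 with PBS, 8.74 with intralipid and 7.36 with ANGPTL4, so that the intralipid array alone was high. It was 2.76-fold higher with intralipid than with PBS (rank 131 of 10049) and 2.59-fold lower with ANGPTL4 than with intralipid (rank 137 of 10064 from the bottom). Between ANGPTL4 and PBS it differed by 1.06-fold. Tnfrsf26, a receptor gene of the mouse without an assigned ligand, was likewise highest with intralipid, by less, with 8.80 for PBS, 9.34 for intralipid and 8.75 for ANGPTL4, 1.50-fold lower with ANGPTL4 than with intralipid. Tnfrsf21, which encodes the death-domain receptor DR6, was 9.73 with PBS, 9.97 with intralipid and 9.37 with ANGPTL4. It was highest with lipid alone and lowest with ANGPTL4, 1.51-fold below intralipid and 1.28-fold below PBS.

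Tnfrsf14, which encodes HVEM, the receptor of LIGHT, was 7.52 with PBS, 7.29 with intralipid and 7.96 with ANGPTL4. It had the order of Tnfrsf1b, lowest with lipid alone and highest with ANGPTL4, where it was 1.58-fold above intralipid and 1.36-fold above PBS. Tnfrsf11a, which encodes RANK, was 7.39, 6.84 and 7.26 in the same order, 1.46-fold lower with intralipid than with PBS. Tnfrsf13b, which encodes TACI, was 6.44, 6.13 and 6.28, and Tnfrsf13c, which encodes the BAFF receptor, was 5.81, 5.85 and 5.81. TACI and the BAFF receptor are best known from B cells, whose 7 measured markers were below the floor on every array.

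The remaining receptor genes hardly differed between arrays. Tnfrsf22 and Tnfrsf23, which encode decoy receptors for TRAIL in the mouse, had log2 values of 5.32 on every array and of 6.51, 6.51 and 6.45. Tnfrsf4, which encodes OX40, lay just under the floor at 4.96 on each array. Tnfrsf8, Tnfrsf9, Tnfrsf10b, Tnfrsf11b, Tnfrsf17, Tnfrsf18, Tnfrsf19 and Tnfrsf25 were below it on every array, at 3.00 (Tnfrsf17) to 4.24 (Tnfrsf18). Tnfrsf10b encodes the TRAIL death receptor of the mouse, at 3.83 on each array, and Tnfrsf11b encodes osteoprotegerin, the decoy for RANKL, at 3.79, 3.93 and 3.79.

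**Figure D2:**
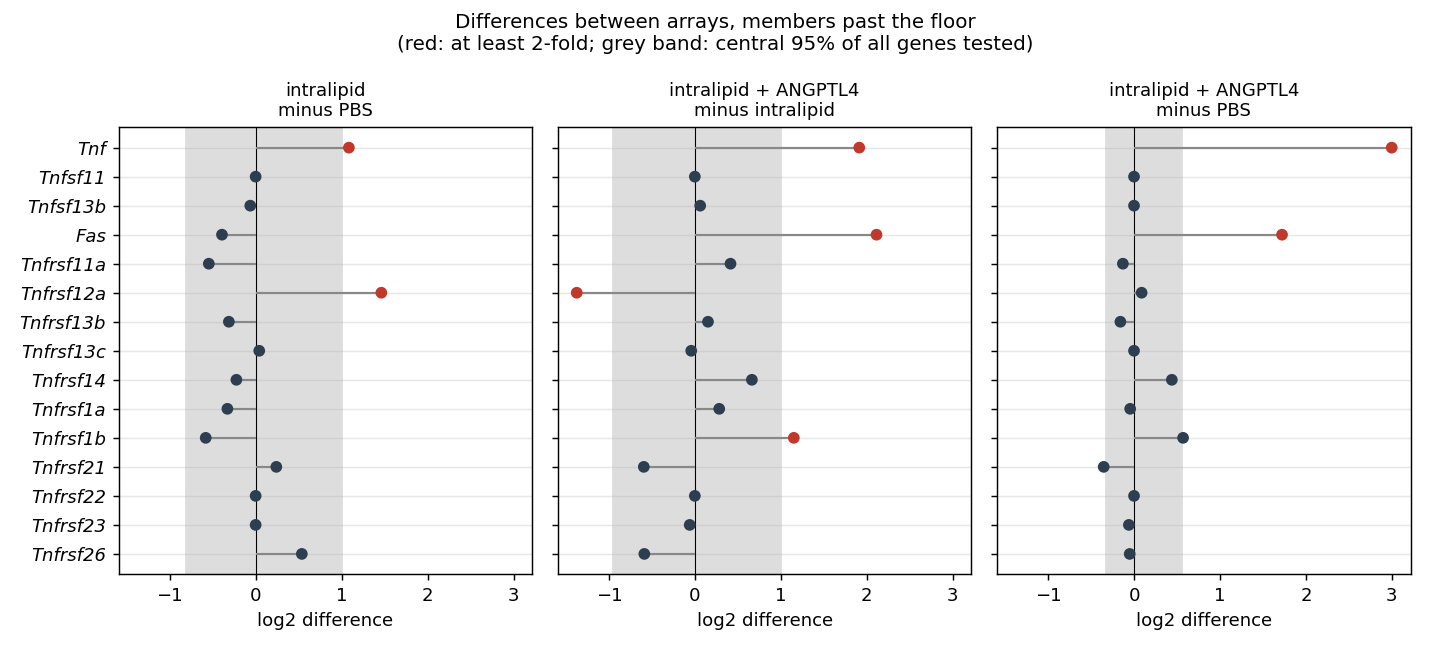
Log2 difference between arrays (horizontal axis) for the 15 members that reached the floor, in 1 panel per comparison, with members at least 2-fold apart in red and the central 95% of all genes compared as a grey band. Tnf lies to the right of the band in each panel, Fas and Tnfrsf1b in the panels with ANGPTL4, and Tnfrsf12a changes side between the first panel and the middle one.

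Read against the whole table, few genes differed 2-fold. With intralipid against PBS, 2 of 15 members compared (Tnf and Tnfrsf12a) were at least 2-fold higher, where 2.51% of the 10049 genes compared were, and 0 were at least 2-fold lower, where 1.32% of genes were. Between the lipid cultures with and without ANGPTL4, 3 of 15 members (Tnf, Fas and Tnfrsf1b) were at least 2-fold higher with it, where 2.53% of 10064 genes were, and 1 (Tnfrsf12a) was at least 2-fold lower, where 2.3% of genes were. With ANGPTL4 against PBS, 2 of 15 members (Tnf and Fas) were at least 2-fold higher, where 0.85% of 9995 genes were, and 0 were at least 2-fold lower, where 0.04% of genes were. Counts this small rest on single genes. The family's median log2 difference over the 15 members was 0.00, 0.06 and 0.00 in the 3 comparisons, and that of all genes compared was 0.00 in each.

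The spread of differences over genes gives a scale for these values. A robust SD, taken as the central 68% of log2 differences divided by 2, was 0.20 for intralipid against PBS, 0.23 for ANGPTL4 against intralipid and 0.10 for ANGPTL4 against PBS. The central 95% ran from -0.81 to 1.00, from -0.95 to 1.01 and from -0.33 to 0.55. Besides the members named above, the third comparison put Tnfrsf1b just above this range, at 0.57, and Tnfrsf21 just below it, at -0.35. This spread is across genes on these arrays and holds no variation between cultures. In the order of the comparisons above, 32.1%, 30.6% and 40.2% of the differences were exactly 0, which narrows the spread and draws the medians to 0.

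Several family genes lie side by side in the genome, and their values are set beside each other here. A neighbour below the floor cannot show whether it shared a course over the arrays. Ltb, Tnf and Lta are consecutive protein-coding genes on chromosome 17. While Tnf went from 7.53 to 8.61 and 10.52, Lta was 3.70, 3.62 and 3.54 and Ltb 4.56, 4.48 and 4.48, both below the floor. Tnfrsf1b and Tnfrsf8 are neighbours on chromosome 4. Tnfrsf8 was 4.12 on every array, below the floor, while Tnfrsf1b differed 2.22-fold between the cultures with lipid. Tnfrsf26, Tnfrsf22 and Tnfrsf23 are consecutive on chromosome 7 and related to each other, and of these Tnfrsf26 was the one with a difference of 1.5-fold or more. Whether their probes tell these related genes fully apart was not tested. On chromosome 6, Ltbr, which encodes the lymphotoxin beta receptor, has 1 protein-coding gene between it and Tnfrsf1a. It was 7.27 with PBS, 6.79 with intralipid and 7.24 with ANGPTL4, lowest with lipid alone as Tnfrsf1a was, while Cd27, a family receptor best known from T cells and 1 gene further on, stayed below the floor.

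**Figure D3:**
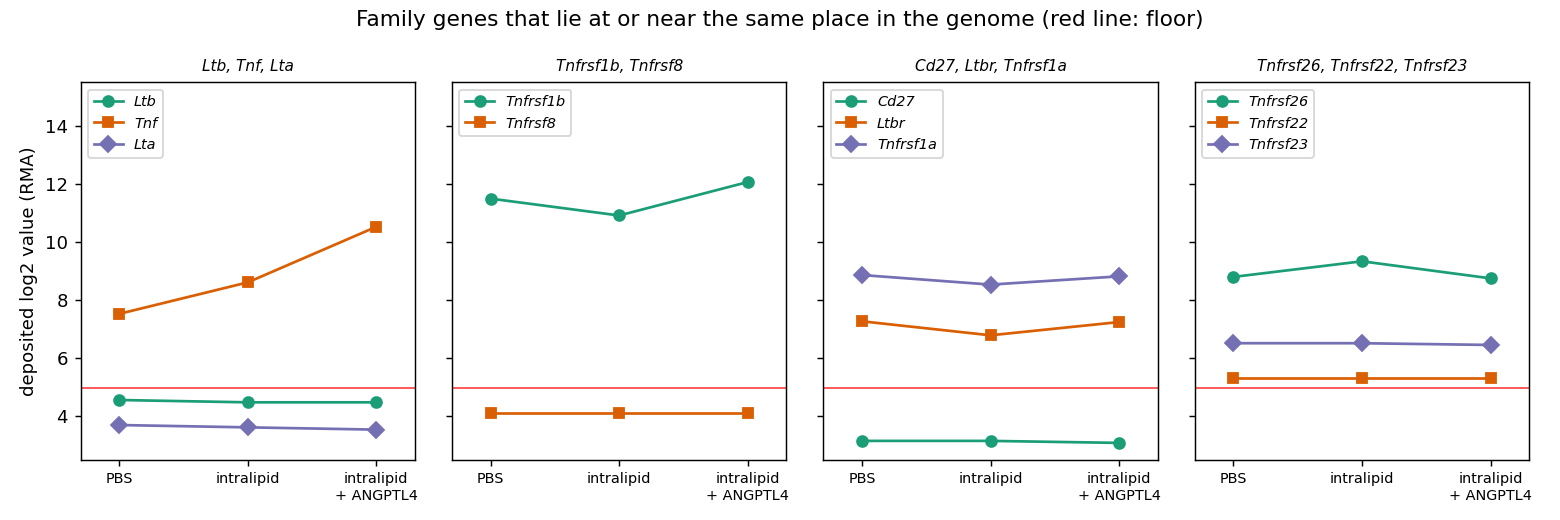
Deposited log2 value (vertical axis) on the 3 arrays for family genes that lie at or near the same place in the genome, 1 panel per place and 1 line per gene, with the mean floor as a red line. Tnf climbs from 7.53 to 10.52 while Ltb and Lta stay under the floor, and Tnfrsf8, also under the floor, stays at 4.12 beside Tnfrsf1b.

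A further 10 family genes carry other symbols and are given here to account for the family. Of these, 4 reached the floor and 0 were at least 2-fold apart in any comparison. In the 3 comparisons 2.51%, 2.53% and 0.85% of all genes compared were higher and 1.32%, 2.3% and 0.04% lower. Nothing is therefore read from 0 of 4 genes. Cd40, the receptor through which T cells license macrophages, was 5.57 with PBS, 6.31 with intralipid and 6.34 with ANGPTL4, 1.68-fold and 1.71-fold higher than PBS on the arrays with lipid. Those arrays differed by 1.02-fold. Its ligand gene Cd40lg was 2.36 on every array. Relt and Ngfr, at 5.39 and 5.08, had the same value on each array, and Cd70, Eda, Edar and Eda2r lay below the floor.

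Genes that act on Tnf mRNA or on the TNF protein were read next to Tnf itself. Of 16 such genes, all at or above the floor, 1 was at least 2-fold higher with intralipid than with PBS and 0 lower, 1 was higher and 1 lower with ANGPTL4 than with intralipid, and 0 differed 2-fold between ANGPTL4 and PBS. Over all genes compared the shares in the same order were 2.51% higher and 1.32% lower, 2.53% and 2.3%, and 0.85% and 0.04%, so that nothing is read from counts of 0 or 1 of 16. Zfp36 encodes tristetraprolin, which binds Tnf mRNA and speeds its decay. It was 8.40 with PBS, 9.86 with intralipid and 8.42 with ANGPTL4, 2.74-fold higher with intralipid than with PBS and 2.71-fold lower with ANGPTL4 than with intralipid. It was high on the array where Tnf was intermediate and near its PBS level on the array where Tnf was highest. Decay of Tnf mRNA was not measured, and a link between these genes was not tested.

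Adam17, the protease that sheds TNF and both TNF receptors, was 10.59 with PBS, 9.72 with intralipid and 11.29 with ANGPTL4. It was lowest with lipid alone, 1.83-fold below PBS, and 2.97-fold higher with ANGPTL4, the order seen for Tnfrsf1b. Next in size, Mapkapk2, the kinase that restrains tristetraprolin, was 1.75-fold higher with ANGPTL4 than with intralipid, and Map3k8, a kinase of the pathway that drives TNF production, was 1.67-fold higher with ANGPTL4 than with PBS. Zfp36l1, a relative of Zfp36, was 1.65-fold lower with ANGPTL4 than with PBS, and Sppl2a, a protease that cuts the stub TNF leaves in the membrane, was 1.64-fold higher with ANGPTL4 than with intralipid. The median log2 difference of the 16 genes was -0.03, 0.13 and 0.02 in the 3 comparisons, in the order used above.

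Adaptors, kinases, ubiquitin editors and caspases that act at these receptors were measured for 31 of 35 listed symbols, and 30 reached the floor. Ripk1, Traf3 and Chuk had no probe set of their own, and Fam105b, the remaining symbol, is an older name of Otulin, which is on the list and was measured. With intralipid against PBS 1 gene was at least 2-fold higher (Tnfaip3), with ANGPTL4 against intralipid 2 were (Tnip1 and Map3k5), and with ANGPTL4 against PBS 4 were (Traf1, Cflar, Tnip1 and Birc3). None of the 30 was at least 2-fold lower in any comparison. Birc3 only just passed, at 2.01-fold, and the counts of this list were not recomputed under other settings. Over all genes compared, 2.51%, 2.53% and 0.85% were higher and 1.32%, 2.3% and 0.04% lower. The median log2 difference was 0.00, 0.12 and 0.13 in these comparisons, against 0.00 over all genes in each.

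Traf1, an adaptor recruited by TNFR2, was 5.09 with PBS, 5.71 with intralipid and 6.45 with ANGPTL4, a 2.58-fold range. Cflar, which encodes the caspase-8 inhibitor cFLIP, was 8.07, 8.80 and 9.38, 2.48-fold higher with ANGPTL4 than with PBS. Birc3, which encodes the ubiquitin ligase cIAP2, was 7.20, 7.70 and 8.20, 2.01-fold higher with ANGPTL4 than with PBS. These genes had the order of Tnf, lowest with PBS and highest with ANGPTL4, at smaller size.

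Tnip1, a partner of the ubiquitin editor A20, was 7.22 with PBS, 7.23 with intralipid and 8.36 with ANGPTL4, high on the last array only. Tnfaip3, which encodes A20 itself, was 8.85, 10.38 and 9.67. It was highest with lipid alone, 2.89-fold above PBS, and 1.63-fold lower with ANGPTL4. Map3k5, which encodes the stress kinase ASK1, was 7.00, 6.38 and 7.39, 2.03-fold higher with ANGPTL4 than with intralipid. Next in size came Tank, a TRAF-binding adaptor, 1.65-fold higher with ANGPTL4 than with PBS, and Traf2, another adaptor, 1.52-fold higher in that comparison. Traf5 and Map3k7, which encodes the kinase TAK1, were 1.56-fold and 1.54-fold higher with ANGPTL4 than with intralipid. Casp8, Tradd and Fadd, picked for their role after their values were seen, carry the death signal. Casp8 was 9.04 on every array, Tradd read 7.30, 7.30 and 7.39, and Fadd, the adaptor of Fas, 7.18, 6.89 and 7.04.

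The 8 genes whose symbol begins with Tnfaip, for TNF alpha induced protein, were read as another list. Those with a Tnfaip8l symbol are named for likeness to Tnfaip8, and induction by TNF was not tested for any of the list. Besides Tnfaip3, which this list shares with the previous one, Tnfaip6, a hyaluronan-binding protein, was 4.16 with PBS, 7.86 with intralipid and 4.48 with ANGPTL4. It was high on the intralipid array only, by 7.35-fold against PBS and 7.38-fold against ANGPTL4 when the lower array is set to the floor. Tnfaip2 was 10.48, 10.79 and 10.96, Tnfaip8l2 was 8.10, 7.40 and 8.01, and the rest were either below the floor or had 1 value on all arrays. With intralipid against PBS, 2 of 6 compared (Tnfaip3 and Tnfaip6) were at least 2-fold higher and 0 lower. The shares of all genes were 2.51% and 1.32%. With ANGPTL4 against intralipid, 0 of 6 were higher and 1 (Tnfaip6) lower, where the shares were 2.53% and 2.3%. Between ANGPTL4 and PBS, 5 of the 8 could be compared and 0 were 2-fold apart, where 0.85% of all genes were higher and 0.04% lower. These counts rest on 1 or 2 genes.

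**Figure D4:**
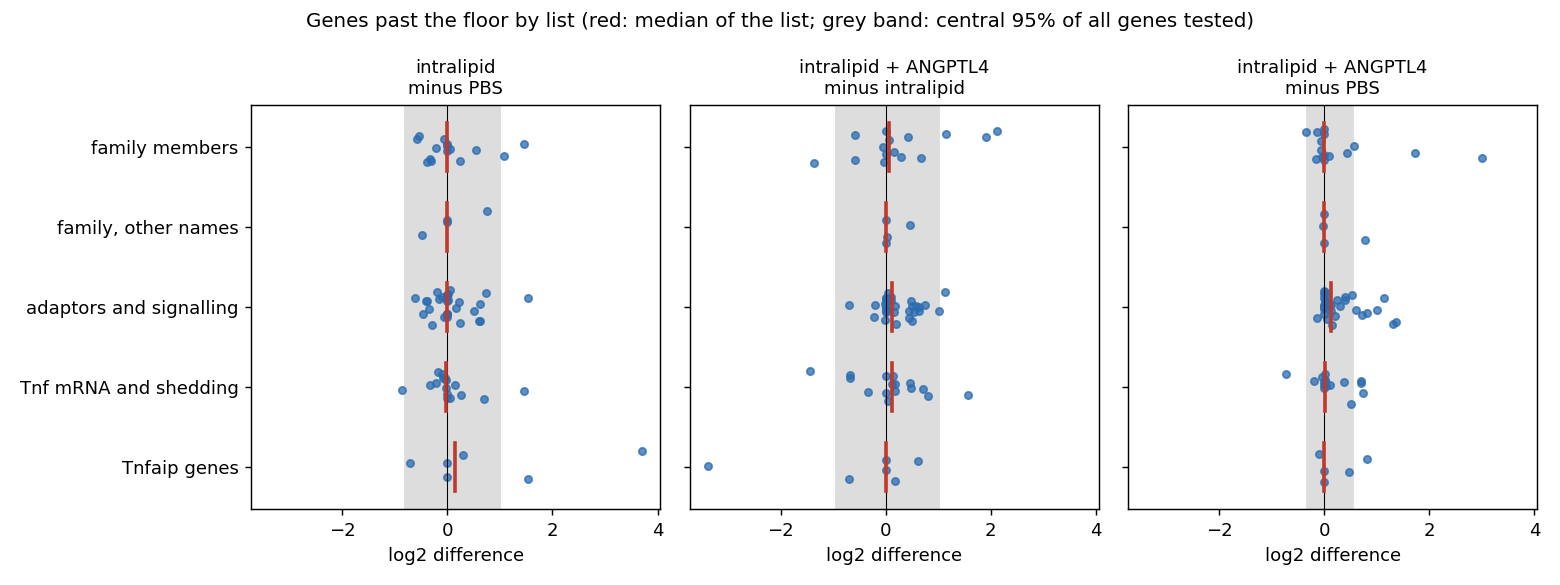
Log2 difference between arrays (horizontal axis) of every gene at or above the floor in the family and in 4 related lists, 1 panel per comparison, with the median of each list in red and the central 95% of all genes compared as a grey band. The medians sit near 0 in each panel, and single genes such as Tnf, Fas, Zfp36, Adam17 and Tnfaip6 lie outside the band.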

How the data were processed

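RNA from cultured peritoneal macrophages was measured on 3 Affymetrix arrays, 1 per group, each loaded with RNA pooled from 3 samples. The authors deposited 1 log2 value per probe set and array, made with RMA per the submitters' processing notes. RMA corrects background, normalizes between arrays and summarises the probes of a probe set. For its version, the chip definition and any filter, the sources used here give nothing. The values were used as deposited. Of 35556 probe sets, 21789 carried 1 gene symbol in GEO's platform annotation and gave 19938 genes. Where a gene had several such probe sets, the one with the highest mean was taken, which applied to 0 members of the TNF superfamily. All 34 members were found by gene ID in the RefSeq gene table under the same symbol.

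With 1 array per group no test was run, no p-value is given, and the number of arrays limits the precision. A gene was counted where 2 arrays differed by at least 2-fold and the higher one reached the floor. The comparison was described over genes at or above the floor on either array. Median centring was done in Python 3.11.15 with pandas 2.3.3, and cyclic loess and quantile normalization in limma 3.58.1. The counting was checked on simulated data in which the changed genes lay well above the floor and past the threshold. Changes near the floor were not part of that check. Promoter windows are the 250 bases before each start site in RefSeq's table for GRCm38.p6, and motifs were searched on both strands.

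The members, gene lists, thresholds and motifs were chosen with earlier results of these data known. Every member could be named. Values on each array are given for members at least 1.5-fold apart in any comparison, and other pathway genes are named where at least 2-fold apart, with up to 4 more per list in order of size. Settings varied were the fold threshold, the floor, the normalization and the choice of probe set.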

Additional observations from a re-analysis of the deposited data

How the results depend on the processing

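The 6 member counts were recomputed under 7 alternative settings (42 values), and 35 equalled the values reported. The remaining setting, averaging over the probe sets of a gene, could not change them, since 0 members have more than 1 probe set. At a 1.5-fold threshold, members lower with ANGPTL4 than with intralipid were 3 in place of 1 (Tnfrsf12a, Tnfrsf21 and Tnfrsf26), and Tnfrsf14 joined those higher. At a 3-fold threshold, 0 members were higher with intralipid than with PBS and 0 were lower with ANGPTL4 than with intralipid, while Tnf and Fas stayed higher in both comparisons with ANGPTL4. Without a floor, all 34 members and all 19938 genes were compared, and Tnfsf9 joined the members higher with ANGPTL4. Against intralipid 4 of 34 members were then higher, beside 262 of 19938 genes, and against PBS 3 of 34, beside 90 of 19938. Over all genes the 1.5-fold threshold gave 509 higher and 560 lower of 10049 for intralipid against PBS. It gave 831 and 498 of 10064 for ANGPTL4 against intralipid, and 237 and 53 of 9995 for ANGPTL4 against PBS. The 3-fold threshold gave 117 and 20, 59 and 102, and 25 and 0, of the same numbers of genes. Centring, cyclic loess and quantile normalization kept all 6 member counts and moved no member's log2 difference by more than 0.07. They were applied on top of RMA values already normalized between arrays, which leaves little room for a shift, and RMA itself was not varied. No paired analysis was possible because each group has 1 array, and for the same reason no array could be left out. Values near the floor limit what can be said of Fas with PBS and intralipid.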

Other observations

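Many deposited values, mostly below the floor, were shared to the last digit by several probe sets. The value of Tnfsf4 and Tnfsf8, a log2 value of 2.86, was held to the last deposited digit by 407 probe sets with PBS, 414 with intralipid and 418 with ANGPTL4. That of Tnfrsf8, 4.12, was held by 203, 208 and 210. The value of 4.41 for Tnfsf9 with ANGPTL4 was shared by 159 probe sets, whereas its value of 3.35 on the other arrays belonged to it alone. On the PBS array 84% of genes below the floor and 35.5% of those at or above it shared their value with another probe set, against 14 of 19 and 5 of 15 family members. The values of Tnf with intralipid and with ANGPTL4 belonged to 1 probe set each, and that with PBS was shared by 5. The value of Fas with PBS, 5.28, lies above the floor and is the base of its 3.30-fold difference, and it was held by 63 probe sets. The cause of the shared values was not tested.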
